A study of Mus musculus with 12 samples.

Results

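The genes described here are those of the NF-κB pathway, its Toll and Nod receptors upstream and the chemokines and other products downstream, in murine jejunal enteroids that lack Hdac1 or Hdac2. They were chosen by gene symbol from a list of 46 names. Of these, 43 genes were listed in at least 1 of the deposited count tables, 42 of them in both, among 18929 genes listed in all. Traf1, Ltb and Cxcl5 were in neither table; a table lists no gene whose counts over its 8 libraries sum to less than 10.

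Enteroids are epithelial cultures grown from intestinal crypts, and HDAC1 and HDAC2 are closely related class I histone deacetylases. Poly(A) RNA was sequenced in 12 libraries, 4 of villin-Cre control, 4 of Hdac1-deleted and 4 of Hdac2-deleted enteroids, grown from the jejunum for 5 days in ENR medium (with EGF, Noggin and R-spondin). All mice carried the Cre recombinase under the villin promoter, which is active in the intestinal epithelium, and the mutants had floxed Hdac1 or Hdac2 alleles, on a mixed C57BL/6J, 129SV and CD1 background. The methods describe crypts from 1 mouse of each genotype, and nothing says that libraries of a group are separate mice, so p-values measure the spread between these libraries, and a genotype cannot be told apart from its mouse or enteroid line.

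In this pathway, Toll-like and Nod receptors recognise bacterial products and pass the signal through adaptors such as MyD88 and kinases of the IRAK and RIP families to the IκB kinases. These release dimers of Rel family subunits (RelA, RelB, c-Rel, p50 and p52) from IκB proteins, and the dimers bind κB sequences at target genes. Many inhibitors, among them IκBα and A20, are themselves targets and close a feedback loop. In the intestinal epithelium the pathway is known for the antimicrobial response and for chemokines that draw lymphocytes, dendritic cells and neutrophils to the mucosa.

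Sequences just before the RefSeq start of the gene are shown for 6 members, each an inhibitor, a Rel subunit or a chemokine, because they held a match to the classical κB decamer, the kind of sequence that Rel dimers bind. They come from RefSeq on GRCm38.p6, run 5′ to 3′ on the strand of the gene, end at the RefSeq start or where the annotated exon begins, and have the bases of the match in capitals, where overlapping matches run together. The sequence of Tnfaip3 lies before its RefSeq start but inside the gene as GENCODE annotates it (chromosome 10 from 19000910 to 19015657).
Nfkbia (chr12:55492648-55492777, minus strand): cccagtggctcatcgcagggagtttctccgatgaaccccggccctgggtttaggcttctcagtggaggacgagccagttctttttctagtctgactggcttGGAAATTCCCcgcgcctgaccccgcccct
Tnfaip3 (chr10:19015411-19015540, minus strand): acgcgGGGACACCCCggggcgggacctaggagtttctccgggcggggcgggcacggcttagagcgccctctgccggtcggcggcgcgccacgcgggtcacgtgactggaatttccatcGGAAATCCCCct
Rel (chr11:23770971-23771099, minus strand): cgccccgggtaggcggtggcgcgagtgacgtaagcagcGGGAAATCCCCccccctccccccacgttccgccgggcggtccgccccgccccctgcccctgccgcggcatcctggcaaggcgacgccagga
Ccl20 (chr1:83116636-83116765, plus strand): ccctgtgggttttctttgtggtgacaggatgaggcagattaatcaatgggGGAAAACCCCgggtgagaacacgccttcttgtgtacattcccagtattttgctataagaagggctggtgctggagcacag
Cxcl1 (chr5:90891115-90891240, plus strand): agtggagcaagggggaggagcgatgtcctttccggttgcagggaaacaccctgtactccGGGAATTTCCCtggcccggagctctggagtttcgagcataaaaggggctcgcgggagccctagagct
Cxcl2 (chr5:90903769-90903870, plus strand): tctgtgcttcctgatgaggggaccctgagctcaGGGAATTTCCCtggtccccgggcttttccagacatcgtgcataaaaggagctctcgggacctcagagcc

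The κB decamer was searched on both strands in the 250 bases before the RefSeq start. It was found for 13 of the 37 members searched (35.1%), against 2225 of 27025 genes with such a window (8.23%). These 13 members were Nfkbia, Nfkbie, Tnfaip3, Rel, Nfkb2, Irak1, Tlr2, Ccl20, Cxcl1, Cxcl2, Csf1, Tnfaip2 and Ltb. The search of members left out chromosome 18, where Cd14 lies, while the shares of all genes include that chromosome. The AP-1 motif TGANTCA was found for 3 members (8.11%, against 7.82% of all genes) and the STAT motif TTCNNNGAA for 7 (18.9%, against 8.13%). A match describes letters only, and the gene list was not tested for enrichment. In the windows of Nfkbia and Ccl20 the match lay 29 to 20 and 80 to 71 bases before the start, and in that of Tnfaip3 there were matches 125 to 116 and 12 to 3 bases before it.

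Between 20693200 and 30658628 reads were counted on genes per library, so that the detection floor used here, 3 reads, lay between 0.0979 and 0.145 CPM (reads of a gene scaled to a common library size, with TMM normalization), and this floor covers counting error only. Hdac1 itself was at 90.5 ± 2.55 CPM in control (mean ± SD of 4 libraries, as in all such values here) and at 4.24 ± 0.841 CPM in the libraries labelled with its deletion, and Hdac2 went from 137 ± 4.3 to 75.8 ± 3.1 CPM in the libraries labelled with its own. Epithelial markers such as Epcam were high in every group (1240.0 ± 24.9, 1190.0 ± 27.5 and 1270.0 ± 23.2 CPM in control, Hdac1-deleted and Hdac2-deleted enteroids). Of 17 immune cell markers, 10 were not listed, and the pan-leukocyte marker Ptprc had 0 to 4 counts per library. The summed level of the listed ones, most of it Kit, ran from 36.4 to 41.4 CPM in control, from 34.4 to 38.6 CPM in Hdac1-deleted and from 36.2 to 37.4 CPM in Hdac2-deleted libraries. Within that list the integrin gene Itgam rose in both mutants (log2 fold change 1.28 and 1.69, adjusted p = 9e-06 and 8.5e-08 from edgeR), S100a9 and Csf1r rose in Hdac1-deleted enteroids (2.60 and 0.81, adjusted p = 3.7e-06 and 0.02), and the macrophage markers Cd68 and Mrc1 rose in Hdac2-deleted enteroids (0.45 and 0.43, adjusted p = 0.035 and 0.0014). Kit fell in both (-0.27 and -0.26, adjusted p = 0.00029 and 0.00017). Csf1r was at 0.41 ± 0.195 CPM in control and 0.146 ± 0.0768 CPM in Hdac2-deleted enteroids, too low for a test of that comparison. Every Hdac2-deleted library was below the control ones for Csf1r, and the mutants differed by 2.29 (adjusted p = 2.8e-05 from edgeR). The summed level of 9 enterocyte markers ran from 9200.0 to 9820.0 CPM in control, from 18200.0 to 20500.0 CPM in Hdac1-deleted and from 14300.0 to 16000.0 CPM in Hdac2-deleted libraries, and that of 6 stem cell markers from 3660.0 to 3850.0, from 2080.0 to 2440.0 and from 1760.0 to 1950.0 CPM. The summed Paneth cell markers ran from 2130.0 to 2470.0, from 3100.0 to 3390.0 and from 3390.0 to 3520.0 CPM in the 3 groups, goblet cell markers from 1590.0 to 1850.0, from 1780.0 to 1900.0 and from 2740.0 to 2950.0 CPM, enteroendocrine markers from 230.0 to 245, from 273 to 313 and from 278 to 304 CPM, and tuft cell markers from 6.26 to 7.13, from 6.20 to 9.03 and from 4.31 to 5.17 CPM. In Hdac1-deleted enteroids the higher Paneth cell sum was not shared by most of its 7 tested markers (median log2 fold change 0.04). Lyz1 and Itln1 rose there (1.26 and 0.5), Ang4 fell (-0.63), and 4 markers did not pass edgeR's test. In Hdac2-deleted enteroids 5 of these 7 rose and 0 fell (median 0.32). Of 8 goblet cell markers, 4 rose and 1 fell in Hdac1-deleted enteroids (median 0.48), with 3 over 2-fold higher. In Hdac2-deleted enteroids 7 of them rose and 0 fell (0.76). Retnlb rose most, from 0.106 ± 0.0205 to 41.2 ± 4.84 and 67.7 ± 3.09 CPM. Of 8 enteroendocrine markers, 6 rose and 0 fell in Hdac1-deleted enteroids (0.32), and 5 rose and 1 fell in Hdac2-deleted enteroids (0.29). The part of the shifts of all these cell type markers in the results was not tested. In bulk RNA a change in the number of cells of a type cannot be told apart from a change in RNA per cell.

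In each mutant the genes that moved most were TNF, an adhesion molecule, epithelial chemokines, cyclooxygenase-2 and, in Hdac1-deleted enteroids, Nod2 and the nuclear IκB protein Nfkbiz, and they rose. No member was more than 2-fold lower by edgeR or by DESeq2. At an adjusted p of at most 0.05 (edgeR's quasi-likelihood F test, Benjamini-Hochberg over all genes tested) and a change of more than 2-fold, 5 of 42 tested members rose in Hdac1-deleted enteroids, where 6.87% of 14246 tested genes rose so far and 3.71% fell. In Hdac2-deleted enteroids, 6 of 41 tested members rose, where 5.45% of 14007 genes rose and 2.84% fell. Without the limit on the size of the change, 22 members rose and 6 fell in Hdac1-deleted enteroids, against 32.7% and 31.9% of all genes. In Hdac2-deleted enteroids 22 rose and 7 fell, against 31.4% and 30.9%. The median log2 fold change of the tested members was 0.20 in Hdac1-deleted and 0.28 in Hdac2-deleted enteroids, and that of all tested genes was within 0.01 of 0 in both. Both comparisons use the same 4 control libraries. The share of all genes whose mutant and control libraries do not overlap was not counted, so a lack of overlap only describes a gene.

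**Figure D1:**
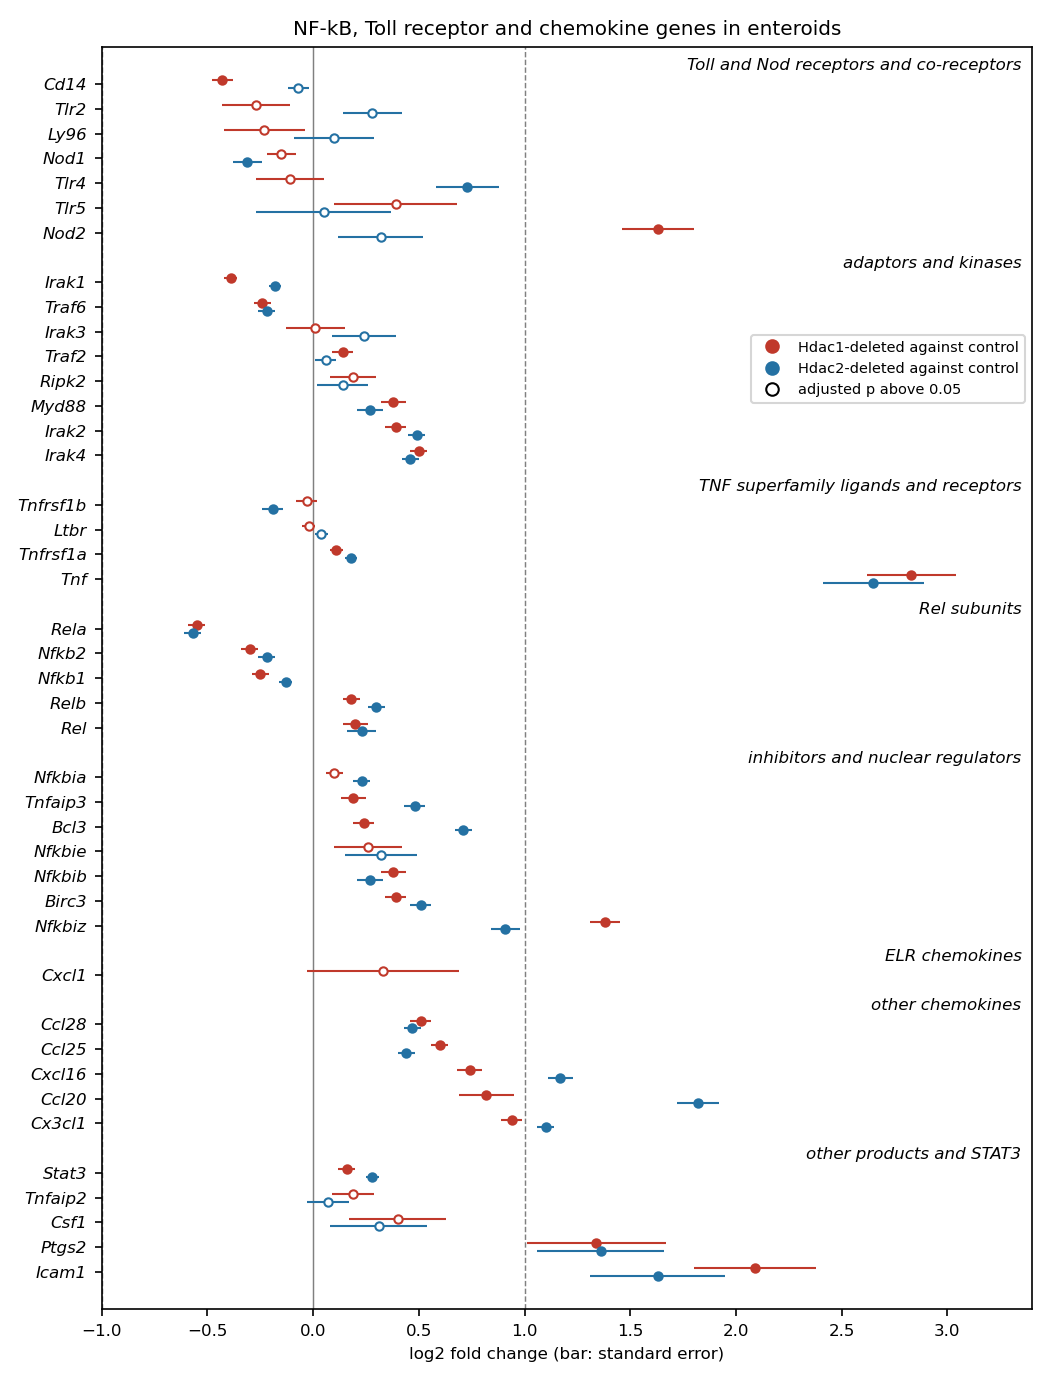
Log2 fold change (horizontal axis, bars are standard errors (SE), n = 4 libraries per group) of each tested member in Hdac1-deleted (red) and Hdac2-deleted (blue) enteroids against control, grouped by role, with filled points where the adjusted p was at most 0.05 and dashed lines at a 2-fold change. Tnf lies furthest to the right at 2.83 and 2.65, and Rela furthest to the left at -0.55 and -0.57.

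The bacterial sensors did not move together. Nod2, the cytosolic receptor of muramyl dipeptide from peptidoglycan, was the 1 receptor called, and it rose in Hdac1-deleted enteroids. Its level was 0.799, 1.41, 1.19 and 1.26 CPM in the control libraries, 3.24, 3.18, 4.32 and 3.48 CPM in the Hdac1-deleted libraries, and 1.66, 1.33, 1.60 and 1.16 CPM in the Hdac2-deleted libraries. Every Hdac1-deleted library was above every other library, while the Hdac2-deleted libraries overlapped the control. The log2 fold change was 1.63 (SE 0.17, adjusted p = 5e-08 from edgeR) in Hdac1-deleted and 0.32 (SE 0.20, adjusted p = 0.18) in Hdac2-deleted enteroids, and the mutants differed from each other by 1.30 (SE 0.17, adjusted p = 3.2e-07). Nod2 (ENSMUSG00000055994) lies on chromosome 8 of GRCm38 from 88647315 to 88688474. Its relative Nod1, which senses another peptidoglycan fragment, was at 11.2 ± 0.611 CPM in control and 10.1 ± 0.688 CPM in Hdac1-deleted enteroids (log2 fold change -0.15, adjusted p = 0.073), and it fell to 9.03 ± 0.632 CPM in Hdac2-deleted enteroids (log2 fold change -0.31, adjusted p = 0.00095). Without control replicate 4 or Hdac1-deleted replicate 3, Nod1 also passed the test in Hdac1-deleted enteroids (adjusted p = 0.037 and 0.029).

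Tlr4, the receptor of lipopolysaccharide, moved in the Hdac2-deleted enteroids. Its level was 1.86, 1.73, 2.01 and 1.98 CPM in control, 1.84, 1.78, 1.29 and 2.10 CPM in Hdac1-deleted and 3.32, 3.64, 2.37 and 3.06 CPM in Hdac2-deleted libraries. All Hdac2-deleted libraries lay above the other 8. Tlr4 rose by a log2 fold change of 0.73 (SE 0.15, adjusted p = 0.0002 from edgeR) in Hdac2-deleted enteroids and had a value of -0.11 (SE 0.16, adjusted p = 0.58) in Hdac1-deleted enteroids, and the difference between the mutants was -0.84 (SE 0.16, adjusted p = 7.9e-05). Cd14, which hands lipopolysaccharide to TLR4, fell in Hdac1-deleted enteroids from 27.5 ± 1.00 to 20.3 ± 0.488 CPM (log2 fold change -0.43, adjusted p = 2.3e-07), with every library below the control ones, and was at 25.9 ± 1.52 CPM in Hdac2-deleted enteroids (log2 fold change -0.07, adjusted p = 0.21). Ly96, which encodes MD-2, the lipopolysaccharide-binding partner of TLR4, was at 1.16 ± 0.140, 0.990 ± 0.136 and 1.24 ± 0.0872 CPM in control, Hdac1-deleted and Hdac2-deleted enteroids, and neither change passed the test.

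Tlr2, the receptor of bacterial lipopeptides, was at 2.36 ± 0.305 CPM in control. It was not past the threshold in Hdac1-deleted enteroids (1.96 ± 0.382 CPM, adjusted p = 0.15 from edgeR) or Hdac2-deleted enteroids (2.87 ± 0.277 CPM, adjusted p = 0.077), but the mutants differed from each other (log2 difference -0.55, SE 0.15, adjusted p = 0.004). Tlr5, the flagellin receptor, was at 0.519 ± 0.199, 0.699 ± 0.165 and 0.541 ± 0.184 CPM in the 3 groups, with overlapping libraries, and its SEs of 0.29 and 0.32 on the log2 scale leave changes of that size undetectable at this depth. In a direct comparison of the mutants, 1 of 42 tested members (Nod2) was over 2-fold higher in Hdac1-deleted enteroids and 0 over 2-fold lower by edgeR or DESeq2, against 2.84% and 2.91% of 14528 tested genes; 4 and 14 members passed the adjusted p alone, against 22.4% and 23.6%.

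Further receptors of these families were counted outside the member list. Of 17 further Toll and Nod receptors and co-receptors, 10 were listed. In Hdac1-deleted enteroids 4 of 9 tested rose and 4 fell (median log2 fold change -0.03), where 32.7% of all tested genes rose and 31.9% fell, and in Hdac2-deleted enteroids 6 of 8 tested rose and 1 fell (median 0.31), where 31.4% and 30.9% of all tested genes did. Tlr1, which pairs with TLR2, stood at 8.26, 9.03, 8.19 and 8.41 CPM in control, 15.6, 16.1, 15.0 and 15.8 CPM in Hdac1-deleted and 1.07, 1.37, 1.69 and 1.25 CPM in Hdac2-deleted libraries. The 3 groups did not overlap, and the change was upward in one mutant (log2 fold change 0.89, SE 0.06, adjusted p = 2.6e-10 from edgeR) and downward in the other (-2.66, SE 0.12, adjusted p = 6.4e-14), so that the mutants differed by 3.55 (SE 0.10, adjusted p = 5.5e-20). Tlr6, the other partner of TLR2, had 2 to 7 counts per control library, 50 to 66 in Hdac1-deleted and 0 to 2 in Hdac2-deleted libraries. It rose in Hdac1-deleted enteroids (log2 fold change 3.88, SE 0.29, adjusted p = 5.6e-10) and was too low to be tested in the Hdac2 comparison. Lbp, the soluble lipopolysaccharide-binding protein, fell in Hdac1-deleted enteroids from 1.01 ± 0.106 to 0.148 ± 0.0471 CPM (log2 fold change -2.75, adjusted p = 8.2e-08) and was at 0.907 ± 0.153 CPM in Hdac2-deleted enteroids.

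**Figure D2:**
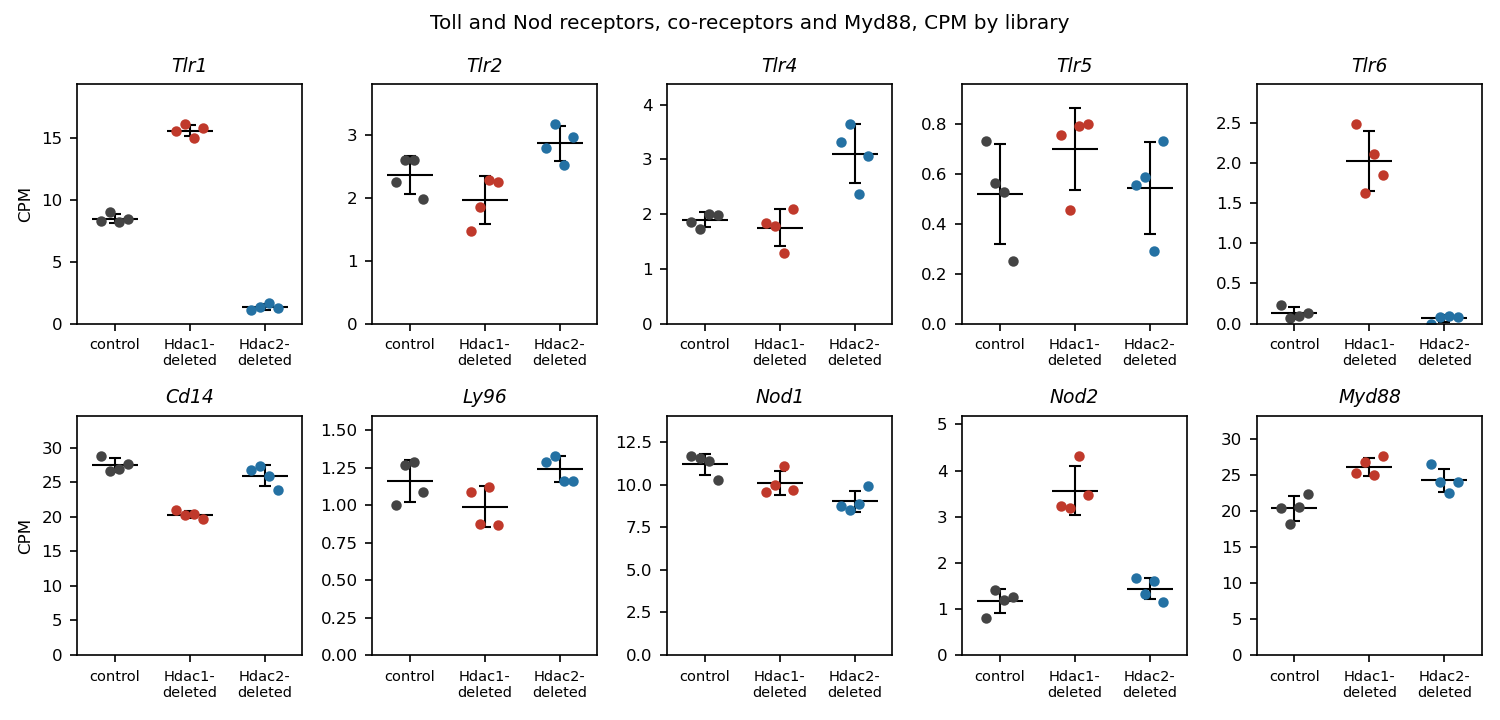
CPM of Toll and Nod receptors, the co-receptors Cd14 and Ly96, and Myd88 in each library (points), with group mean and SD (bars, n = 4). Tlr1, Tlr6 and Nod2 are highest in the Hdac1-deleted libraries, Tlr4 in the Hdac2-deleted libraries, and the Tlr5 libraries of the 3 groups overlap.

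Among the adaptors and kinases, Myd88, Irak4 and Irak2 rose in both mutants, and Irak1 and Traf6 fell in both. Irak4, the kinase that starts the cascade, rose from 32.1 ± 0.806 CPM in control to 45.0 ± 0.823 CPM in Hdac1-deleted and 43.7 ± 1.85 CPM in Hdac2-deleted enteroids (log2 fold change 0.50 and 0.46, adjusted p = 1.9e-09 and 7.5e-09 from edgeR). Irak2 rose from 27.9 ± 1.04 to 36.4 ± 1.16 and 38.8 ± 1.16 CPM (0.39 and 0.49), and Myd88, the adaptor of most Toll-like receptors, from 20.4 ± 1.71 to 26.2 ± 1.25 and 24.3 ± 1.58 CPM (0.38 and 0.27). For these 3 genes every mutant library was above every control library, and the share of all genes of which this holds was not counted. Irak1, the kinase next in line, fell from 103 ± 1.69 to 77.9 ± 2.07 and 90.4 ± 2.99 CPM (log2 fold change -0.39 and -0.18, adjusted p = 4.6e-09 and 0.0001), and Traf6, its ubiquitin ligase partner, from 48.6 ± 1.70 to 41.0 ± 1.49 and 41.3 ± 0.737 CPM (-0.24 and -0.22, adjusted p = 6.8e-05 and 5.4e-05). Traf2, which serves TNF receptors, rose in Hdac1-deleted enteroids by 0.14 (adjusted p = 0.013) and had 0.06 (adjusted p = 0.35) in Hdac2-deleted enteroids. Ripk2, the kinase of Nod1 and Nod2, was at 3.63 ± 0.291, 4.12 ± 0.437 and 3.94 ± 0.616 CPM, and Irak3, an inhibitory member of the family, at 2.49 ± 0.348, 2.49 ± 0.181 and 2.92 ± 0.518 CPM, with no change past the test. Of 36 further adaptors and kinases, 35 were listed. In Hdac1-deleted enteroids 17 of 33 tested rose and 6 fell (median 0.14), where 32.7% of all tested genes rose and 31.9% fell. In Hdac2-deleted enteroids 21 of 32 rose and 6 fell (median 0.15), where 31.4% of all tested genes rose and 30.9% fell. The genes of that list called over 2-fold in a mutant by edgeR were Peli2 and Ikbke. Peli2, an E3 ligase of IRAK1, fell from 7.80 ± 0.585 to 2.88 ± 0.454 and 2.02 ± 0.571 CPM (log2 fold change -1.42 and -1.95, adjusted p = 6.5e-10 and 4.7e-11). Ikbke, the IKK-related kinase ε, rose from 30.8 ± 1.5 to 68.7 ± 6.69 and 51.3 ± 1.15 CPM (1.17 and 0.75, adjusted p = 1.9e-11 and 2.7e-12).

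Tnf, which encodes the cytokine TNF and lies on chromosome 17 from 35199381 to 35202007 (ENSMUSG00000024401), had the largest change of all members in both mutants, from a low level. It was counted at 0.466, 0.176, 0.462 and 0.547 CPM in the control libraries, which were 5 to 14 reads each. The Hdac1-deleted libraries had 2.67, 3.15, 2.74 and 3.08 CPM and the Hdac2-deleted libraries 2.25, 2.66, 2.23 and 3.19 CPM. No mutant library overlapped the control, and the mutants overlapped each other. Tnf rose 7.09-fold in Hdac1-deleted enteroids (log2 fold change 2.83, SE 0.21, adjusted p = 5e-10 from edgeR) and 6.29-fold in Hdac2-deleted enteroids (2.65, SE 0.24, adjusted p = 4.3e-09), and the difference between the mutants was 0.17 (SE 0.16, adjusted p = 0.40).

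The receptors for TNF and lymphotoxin were far more abundant than the ligand and moved little. Per kb of annotated exon, Ltbr (the lymphotoxin β receptor) and Tnfrsf1a (the main TNF receptor) had mean control levels of 73.1 and 47.5 CPM per kb, the highest of all members by that length, against 0.252 CPM per kb for Tnf. Tnfrsf1a rose from 123 ± 1.34 to 132 ± 2.86 CPM in Hdac1-deleted and 138 ± 4.13 CPM in Hdac2-deleted enteroids (log2 fold change 0.11 and 0.18, adjusted p = 0.0052 and 3.4e-05 from edgeR). Tnfrsf1b, the second TNF receptor, was at 28.8 ± 1.87 and 28.1 ± 0.952 CPM in control and Hdac1-deleted enteroids, and fell to 25.2 ± 1.10 CPM in Hdac2-deleted enteroids (-0.19, adjusted p = 0.0044). Ltbr was at 172 ± 3.62, 169 ± 5.11 and 176 ± 3.63 CPM, and its log2 fold changes of -0.02 and 0.04 had SEs of 0.03. Of 37 other ligands and receptors of the TNF superfamily, 26 were listed. In Hdac1-deleted enteroids 10 of 21 tested rose and 5 fell (median 0.21), where 32.7% of all tested genes rose and 31.9% fell. In Hdac2-deleted enteroids 10 of 20 rose and 2 fell (median 0.20), where 31.4% of all tested genes rose and 30.9% fell. Tnfrsf11b, the soluble decoy receptor osteoprotegerin, rose from 0.401 ± 0.0961 to 1.14 ± 0.184 and 3.07 ± 0.275 CPM (log2 fold change 1.51 and 2.93, adjusted p = 1.8e-05 and 3.8e-11). Tnfrsf18, which encodes GITR, fell from 2.10 ± 0.499 to 0.842 ± 0.0377 and 0.866 ± 0.205 CPM (-1.31 and -1.27, adjusted p = 6.2e-06 and 3e-05). Tnfrsf8, which encodes CD30, fell in Hdac1-deleted enteroids from 2.34 ± 0.184 to 0.861 ± 0.224 CPM (-1.42, adjusted p = 1.1e-06), and was at 2.12 ± 0.287 CPM in Hdac2-deleted enteroids.

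The 5 Rel subunits split into those that fell and those that rose, in the same way in each mutant. Rela, the main transactivating subunit, was at 80.6, 80.8, 82.3 and 74.8 CPM in the control libraries, 54.1, 55.0, 53.2 and 54.9 CPM in the Hdac1-deleted libraries and 49.7, 54.5, 53.0 and 55.5 CPM in the Hdac2-deleted libraries. All 8 mutant libraries lay well below the control. It fell by log2 fold changes of -0.55 and -0.57 (SEs 0.04, adjusted p = 2.4e-10 and 1.5e-10 from edgeR), the largest declines among the members, and the mutants differed by 0.03 (SE 0.04, adjusted p = 0.64). Nfkb2, the precursor of p52, fell from 50.2 ± 1.56 to 40.4 ± 1.74 and 42.8 ± 1.55 CPM (-0.30 and -0.22, adjusted p = 4.1e-06 and 9.7e-05). Nfkb1, the precursor of p50, fell from 117 ± 3.88 to 98.3 ± 3.58 and 106 ± 1.55 CPM (-0.25 and -0.13, adjusted p = 7.6e-06 and 0.0015). Rel, which encodes c-Rel, rose from 12.7 ± 0.220 to 14.5 ± 0.530 and 14.8 ± 1.23 CPM (0.20 and 0.23, adjusted p = 0.007 and 0.0048). Relb, the partner of p52 in the alternative pathway, rose from 42.4 ± 1.12 to 47.7 ± 1.19 and 51.8 ± 1.86 CPM (0.18 and 0.30, adjusted p = 0.00076 and 1.6e-06). For each of the 5 genes the mutant libraries did not overlap the control, and the share of all genes of which this holds was not counted.

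Rela (from 5637483 to 5648130) and Nfkb2 (from 46304320 to 46312385) both lie on chromosome 19 of GRCm38. Over all 471 tested protein-coding genes of that chromosome the median log2 fold change was -0.53 in Hdac1-deleted enteroids, and over 461 such genes it was -0.52 in Hdac2-deleted enteroids. For the other 18 autosomes the medians lay between -0.05 and 0.06 and between -0.01 and 0.12. The values of Rela in both mutants were thus close to the median of its chromosome, and those of Nfkb2 were above it. The part of this chromosome-wide shift in the fall of Rela and Nfkb2 was not tested. Nfkb1, on chromosome 3, lies outside it.

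Of the inhibitors and nuclear regulators, 5 of 7 rose in Hdac1-deleted and 6 of 7 in Hdac2-deleted enteroids (against 32.7% and 31.4% of all tested genes), none of them fell in edgeR's test, and the medians of their log2 fold changes were 0.26 and 0.48. Nfkbiz, which encodes the nuclear protein IκBζ and lies on chromosome 16 from 55811375 to 55838899 (ENSMUSG00000035356), changed most. It was at 11.7, 11.1, 11.1 and 11.7 CPM in control, 27.9, 26.3, 33.0 and 30.3 CPM in Hdac1-deleted and 19.9, 19.5, 24.7 and 21.3 CPM in Hdac2-deleted libraries. The 3 groups did not overlap, with the Hdac1-deleted libraries highest. Nfkbiz rose 2.60-fold (log2 fold change 1.38, SE 0.07, adjusted p = 6.9e-13) and 1.88-fold (0.91, SE 0.07, adjusted p = 4.2e-10), and the mutants differed by 0.47 (SE 0.07, adjusted p = 1.1e-05).

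Bcl3, another nuclear IκB protein, had the opposite order of the mutants: 23.1 ± 0.813 CPM in control, 27.2 ± 0.674 CPM in Hdac1-deleted and 37.5 ± 0.880 CPM in Hdac2-deleted enteroids (log2 fold change 0.24 and 0.71, adjusted p = 0.00019 and 1.5e-11 from edgeR), with a difference between the mutants of -0.47 (adjusted p = 1.8e-09). Tnfaip3, which encodes the deubiquitinase A20, rose from 21.9 ± 1.32 to 24.9 ± 1.11 and 30.3 ± 1.68 CPM (0.19 and 0.48, adjusted p = 0.0043 and 1.2e-07), also more in Hdac2-deleted enteroids (difference -0.29, adjusted p = 6.1e-05). Birc3, which encodes the ubiquitin ligase cIAP2, rose from 24.3 ± 0.870 to 31.8 ± 0.384 and 34.4 ± 1.30 CPM (0.39 and 0.51). Nfkbib, which encodes IκBβ, rose from 19.3 ± 1.62 to 24.9 ± 0.451 and 23.1 ± 0.951 CPM (0.38 and 0.27). Nfkbia, which encodes IκBα, was at 52.4 ± 2.71 CPM in control, 55.7 ± 1.75 CPM in Hdac1-deleted enteroids (0.10, adjusted p = 0.061) and rose to 61.1 ± 1.79 CPM in Hdac2-deleted enteroids (0.23, adjusted p = 6.8e-05). The value in Hdac1-deleted enteroids passed the test without control replicate 1, without Hdac1-deleted replicate 2 and with all 12 libraries in 1 fit (adjusted p = 0.0092 to 0.048), which makes 6 of 7. Nfkbie, which encodes IκBε, was at 1.79 ± 0.338, 2.14 ± 0.150 and 2.25 ± 0.323 CPM and did not pass the test. Of 21 further inhibitors and ubiquitin enzymes, 10 of 20 tested rose and 3 fell in Hdac1-deleted enteroids (median 0.12), against 32.7% and 31.9% of all tested genes. In Hdac2-deleted enteroids 11 of 19 rose and 3 fell (median 0.17), against 31.4% and 30.9% of all tested genes. Tnip3, an A20-binding inhibitor, was at 0.869 ± 0.251 CPM in control and 0.691 ± 0.139 CPM in Hdac1-deleted enteroids, and rose to 1.92 ± 0.349 CPM in Hdac2-deleted enteroids (log2 fold change 1.15, adjusted p = 7.3e-05).

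**Figure D3:**
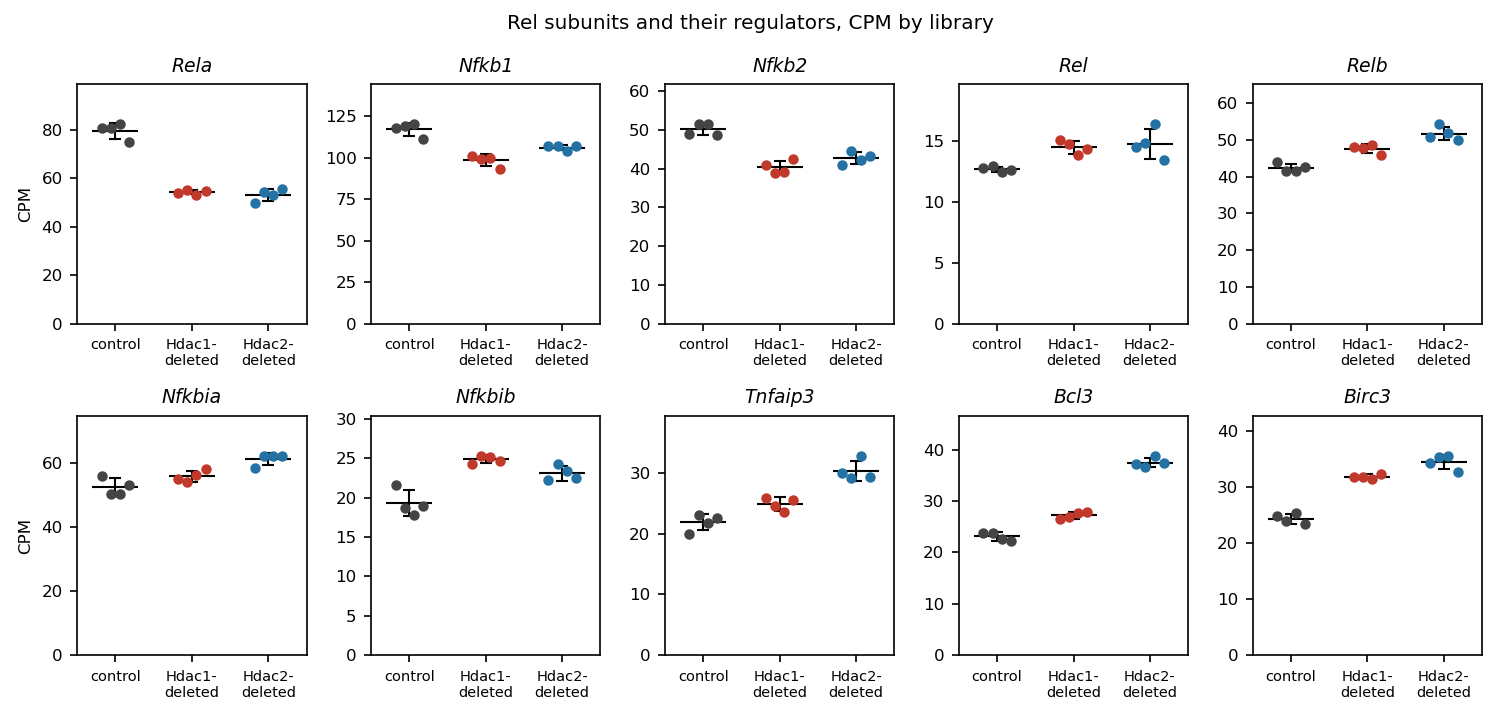
CPM of the 5 Rel subunits (top row) and of 5 inhibitors and regulators (bottom row) in each library (points), with group mean and SD (bars, n = 4). Rela, Nfkb1 and Nfkb2 are lower in all mutant libraries, Rel and Relb higher, and Bcl3 and Tnfaip3 are highest in the Hdac2-deleted libraries.

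The 5 members that are chemokines without an ELR motif rose in both mutants, where 32.7% and 31.4% of all tested genes rose, with median log2 fold changes of 0.74 and 1.10. Ccl20, the ligand of CCR6 that attracts dendritic cells and lymphocytes, lies on chromosome 1 from 83116766 to 83119167 (ENSMUSG00000026166), directly after the sequence shown. It was at 2.10, 2.05, 2.18 and 2.02 CPM in control, 4.40, 3.41, 3.04 and 3.91 CPM in Hdac1-deleted and 7.48, 6.93, 7.40 and 7.45 CPM in Hdac2-deleted libraries. The 3 groups did not overlap, and the Hdac2-deleted libraries were the highest. Ccl20 rose 1.77-fold in Hdac1-deleted (log2 fold change 0.82, SE 0.13, adjusted p = 2.4e-05 from edgeR) and 3.52-fold in Hdac2-deleted enteroids (1.82, SE 0.10, adjusted p = 1.7e-12). The difference between the mutants was -1.0 (SE 0.10, adjusted p = 1e-08), just short of the 2-fold limit. Without Hdac1-deleted replicate 1 it was -1.09, and without Hdac1-deleted replicate 4 or Hdac2-deleted replicate 2 it was -1.03, so that Ccl20 would be called.

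Cxcl16, a membrane-bound chemokine and the ligand of CXCR6, was at 19.1, 19.4, 17.4 and 20.5 CPM in control, 30.4, 31.6, 30.4 and 34.2 CPM in Hdac1-deleted and 39.3, 46.1, 43.0 and 41.9 CPM in Hdac2-deleted libraries, again with no overlap. Its log2 fold changes were 0.74 and 1.17 (SEs 0.06, adjusted p = 8e-10 and 1.8e-13 from edgeR), with a difference between the mutants of -0.43 (adjusted p = 2.3e-07). Cxcl16 (ENSMUSG00000018920) lies on chromosome 11 from 70453983 to 70459984. Cx3cl1, or fractalkine, the ligand of CX3CR1 on intestinal macrophages, was at 27.1, 27.3, 28.7 and 28.7 CPM in control, 56.2, 49.5, 52.5 and 55.5 CPM in Hdac1-deleted and 62.1, 57.8, 57.6 and 60.2 CPM in Hdac2-deleted libraries. The mutant libraries were all far above the control, and every Hdac2-deleted library was above the Hdac1-deleted ones. The mutants differed by -0.16 (SE 0.04, adjusted p = 0.0031 from edgeR). The fold was 1.92 in Hdac1-deleted (log2 fold change 0.94, SE 0.05, adjusted p = 9.8e-13), under the 2-fold limit, and 2.14 in Hdac2-deleted enteroids (1.10, SE 0.04, adjusted p = 3.7e-15). Cx3cl1 (ENSMUSG00000031778) lies on chromosome 8 from 94772009 to 94782427.

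Ccl25, the small intestinal ligand of CCR9, rose from 221 ± 12 to 333 ± 8.24 CPM in Hdac1-deleted and 297 ± 13.8 CPM in Hdac2-deleted enteroids (log2 fold change 0.60 and 0.44, adjusted p = 3e-11 and 1.1e-08 from edgeR), and was higher in the former (difference 0.16, adjusted p = 0.00078). Ccl28, a mucosal ligand of CCR10, rose from 33.4 ± 1.25 to 47.3 ± 2.93 and 45.9 ± 1.28 CPM (0.51 and 0.47, adjusted p = 1.5e-08 and 4.1e-09). The neutrophil-attracting ELR chemokines were near the floor. Cxcl1 was at 0.302 ± 0.117, 0.387 ± 0.148 and 0.420 ± 0.117 CPM in the 3 groups, with a log2 fold change of 0.33 (SE 0.36, adjusted p = 0.44) in Hdac1-deleted enteroids and too few reads for a test in the Hdac2 comparison. Cxcl2 had 0, 0, 1 and 0 reads in the control libraries and 2, 2, 5 and 0 in the Hdac1-deleted libraries, and is not listed in the table of the Hdac2 comparison. Cxcl2 had too few reads for a test in the main comparisons.

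Of 42 further chemokines and chemokine receptors, 14 were listed. In Hdac1-deleted enteroids 3 of 9 tested rose and 1 fell (median 0.20), a share of rises near the 32.7% of all tested genes, and in Hdac2-deleted enteroids 4 of 7 rose and 1 fell (median 0.17), where 31.4% of all tested genes rose. Ccl6, a CC chemokine, rose from 9.99 ± 1.36 to 23 ± 1.28 and 31.2 ± 1.97 CPM (log2 fold change 1.22 and 1.67, adjusted p = 2.5e-11 and 1.4e-13 from edgeR). Cxcr4, the receptor of CXCL12, fell in Hdac1-deleted enteroids from 1.44 ± 0.0681 to 0.414 ± 0.121 CPM (-1.78, adjusted p = 7.8e-07) and was at 1.45 ± 0.162 CPM in Hdac2-deleted enteroids. Ccl27a had 0 to 3 counts in the control libraries and was higher by at least 11.9-fold in the former and 6.71-fold in the latter mutant, taken against 3 counts in the shallowest control library. Its size is uncertain, since the gene has near-identical copies and overlaps Il11ra1.

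Among the remaining products, Icam1, the leukocyte adhesion molecule, and Ptgs2, which encodes cyclooxygenase-2, rose from low levels in both mutants. Icam1 (ENSMUSG00000037405, on chromosome 9 from 21015985 to 21028817) was at 0.233, 0.212, 0.132 and 0.337 CPM in control, 1.24, 0.876, 0.825 and 0.906 CPM in Hdac1-deleted and 0.848, 0.704, 0.629 and 0.560 CPM in Hdac2-deleted libraries. No mutant library overlapped the control, whose libraries held 4 to 8 reads each. Its log2 fold changes were 2.09 (SE 0.29, adjusted p = 3.7e-06 from edgeR) and 1.63 (SE 0.32, adjusted p = 0.00019), and the mutants differed by 0.46 (SE 0.24, adjusted p = 0.12).

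Ptgs2 (ENSMUSG00000032487, on chromosome 1 from 150100031 to 150108227) was at 0.333, 0.353, 0.330 and 0.631 CPM in control, 0.565, 1.59, 0.792 and 1.09 CPM in Hdac1-deleted and 0.995, 1.45, 0.629 and 0.991 CPM in Hdac2-deleted libraries. It passed the test with log2 fold changes of 1.34 and 1.36 (SEs 0.33 and 0.30, adjusted p = 0.0014 and 0.00044 from edgeR), but the lowest library of each mutant fell within the range of the control, whose replicate 4 was highest. Over all alternatives its values ran from 1.02 to 1.58 and from 1.14 to 1.59. Stat3, the transcription factor downstream of interleukin-6 and interleukin-22 receptors, rose from 80.5 ± 2.84 to 89.7 ± 3.09 and 96.7 ± 1.39 CPM (0.16 and 0.28, adjusted p = 0.00086 and 4.8e-07). Csf1, the macrophage growth factor, was at 0.867 ± 0.187, 1.15 ± 0.305 and 1.09 ± 0.262 CPM, and Tnfaip2, a TNF-induced gene, at 4.87 ± 0.393, 5.56 ± 0.630 and 5.12 ± 0.387 CPM, with no change past the test.

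**Figure D4:**
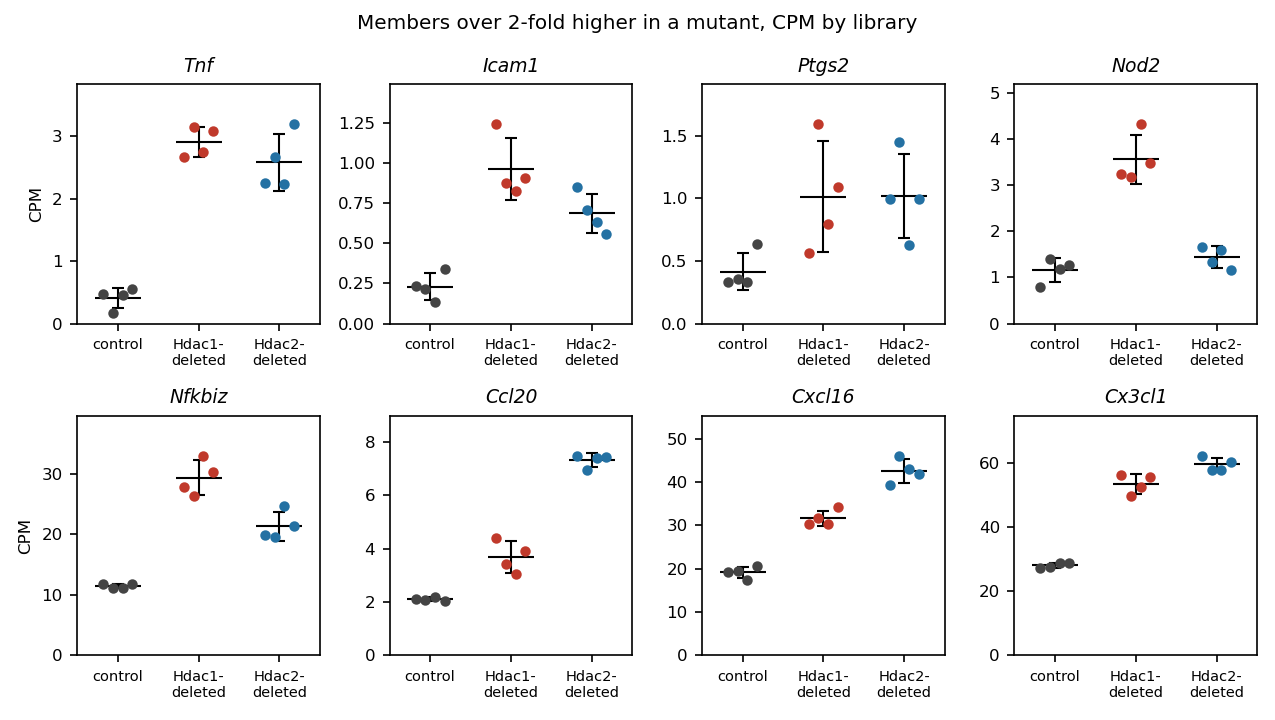
CPM of the 8 members over 2-fold higher in at least 1 mutant, in each library (points), with group mean and SD (bars, n = 4) and each panel on its own axis from 0. The control libraries lie below all mutant libraries for Tnf, Icam1, Nfkbiz, Ccl20, Cxcl16 and Cx3cl1, while Ptgs2 libraries overlap and Nod2 is higher in Hdac1-deleted enteroids alone.

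Nos2, an NF-κB target gene outside the member list, changed by more than any member, and Duox2 and Duoxa2 also rose by more than 2-fold in both mutants. Of 32 such target genes, 23 were listed. In Hdac1-deleted enteroids 10 of 16 tested rose and 2 fell (median 0.51), where 32.7% of all tested genes rose and 31.9% fell. In Hdac2-deleted enteroids 10 of 15 rose and 2 fell (median 0.39), where 31.4% of all tested genes rose and 30.9% fell. Nos2, the inducible nitric oxide synthase, had 0 to 3 reads per control library and 10.8 ± 1.72 and 17.7 ± 1.08 CPM in the mutants, with increases of at least 85.7-fold and 140.0-fold against the floor (adjusted p = 1.1e-14 and 6.8e-19 from edgeR). Duox2, an epithelial NADPH oxidase that makes hydrogen peroxide at the apical surface, rose from 3.62 ± 0.628 to 11.4 ± 0.560 and 16.5 ± 1.85 CPM (log2 fold change 1.66 and 2.19, adjusted p = 1.6e-11 and 5.6e-12). Duoxa2, its maturation factor, rose from 0.794 ± 0.188 to 2.29 ± 0.494 and 3.26 ± 0.187 CPM (1.52 and 2.04, adjusted p = 2e-06 and 1.4e-09). Upstream of Stat3, 9 of 18 tested genes (of 22 named) rose and 4 fell in Hdac1-deleted enteroids (median 0.14), against 32.7% and 31.9% of all tested genes. In Hdac2-deleted enteroids 8 rose and 5 fell (median 0.16), against 31.4% and 30.9% of all tested genes. Il22ra1, the interleukin-22 receptor, rose from 16.6 ± 2.07 to 39.1 ± 4.22 and 28.7 ± 0.859 CPM (1.24 and 0.80, adjusted p = 9.1e-08 and 3.6e-09). Il11ra1, the interleukin-11 receptor, rose from 1.19 ± 0.239 to 3.43 ± 0.504 and 3.17 ± 0.363 CPM (1.54 and 1.43, adjusted p = 8.9e-08 and 1.9e-07), and this gene too has near-identical copies beside its overlap with Ccl27a.

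The members covered a wide range of levels per length in control enteroids, from 73.1 CPM per kb for Ltbr to 0.0523 for Icam1 (Cxcl2, with 1 read in control, is left aside). After Ltbr and Tnfrsf1a, Nfkbia (32.5 CPM per kb), Ccl25 (29.7), Rela (25.9) and Irak1 (21.8) were the highest. Several genes for bacterial sensors were among the lowest, with 0.783 CPM per kb for Tlr2, 0.342 for Tlr4, 0.233 for Nod2 and 0.108 for Tlr5. Of the other members in that group, Cd14 was far higher at 15.9 CPM per kb, while Nod1 was at 2.21 and Ly96 at 1.14. The order depends on the length used for genes with long alternative exons. With the longest transcript in place of all annotated exons, Ccl25 was at 86.7 CPM per kb, above Ltbr at 81.6. Nfkb1 was then at 28.2 in place of 9.70 CPM per kb.

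**Figure D5:**
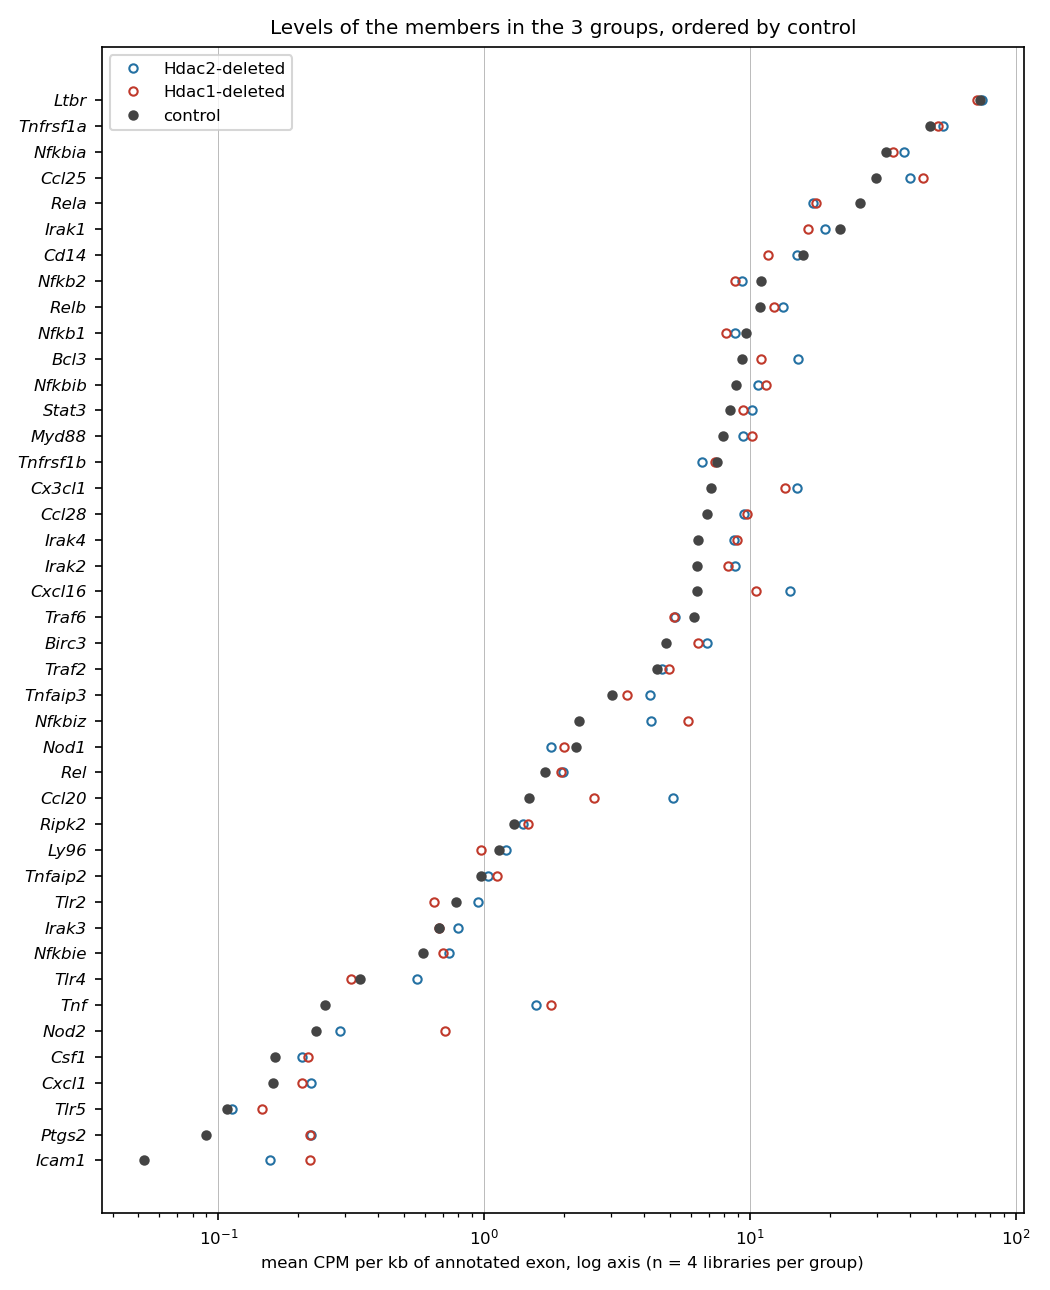
Mean CPM per kb of annotated exon (horizontal log axis, n = 4 libraries per group) of the listed members except Cxcl2, in control (filled), Hdac1-deleted (open red) and Hdac2-deleted (open blue) enteroids, ordered by control. Wide gaps between control and a mutant are seen for Tnf, Icam1, Ptgs2 and Nod2 at the low end, and for Nfkbiz and Ccl20 in the middle.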

How the data were processed

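Counts per gene came from 12 RNA-Seq libraries, 4 per group, grouped by the genotype in their labels. The authors aligned paired reads of 100 bases to GRCm38 with STAR (version 2.4.0f1 in the submitters' processing notes) and deposited whole read counts per gene in 1 table for each mutant, with the same 4 control libraries in both. The counting program and its strand setting are not given in the sources used here, so reads shared by paralogs or overlapping genes could be split. The tables also hold a normalized score (rounded, deposited by the authors), the authors' log2 fold change and average log2 CPM, and p-values that the authors obtained with DESeq and edgeR; none of these was used.

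Counts were tested with edgeR (version 4.0.16, R 4.3.3): TMM normalization, filterByExpr, robust quasi-likelihood F test and Benjamini-Hochberg adjustment across the tested genes. The fits held 8 libraries for a mutant and control and all 12 for the mutants against each other, where 957 genes absent from 1 table, Cxcl2 among them, were set to 0 in its mutant libraries. Calls needed a change of more than 2-fold with an adjusted p no higher than 0.05. CPM values use TMM factors over all 12 libraries, and positions and lengths come from the GENCODE M21 annotation (GRCm38), in which 18817 (99.4%) of the listed genes were found. Where no library of a group held more than 3 counts, folds are lower bounds. Members and gene lists were chosen with earlier results of these data known. Library values were given for members called in any comparison and for members whose role is described, and from each further list at most 3 called genes with the largest change and a mean of at least 1 CPM in some group. Lists are given as counts and medians without a test. Same-numbered libraries of different groups had correlations of their deviations from -0.213 to 0.219, and no source pairs them. Replicates differed by more than sampling noise (lowest chi-square per degree of freedom 1.489). Alternatives were DESeq2 (version 1.42.0), scaling by relative log expression, by library size alone, testing all listed genes, a mean of at least 10 counts, an adjusted p of at most 0.01, no limit on the fold change, a replicate block, other sets of libraries and each library left out in turn. Tables used pandas 2.3.3 and figures matplotlib 3.10.9, under Python 3.11.15.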

Additional observations from a re-analysis of the deposited data

Results flagged for a closer look

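Single libraries stood apart from the other 3 of their group in 8 of the 128 groups of 4 examined for the members (by Dixon's 95% limit on the gap to the nearest library), and chance alone flags about 1 in 20 such groups. In Hdac2-deleted enteroids the lowest library was apart for Nfkbia (58.4 CPM), Ccl20 (6.93 CPM) and Nfkb1 (104 CPM). In Hdac1-deleted enteroids the lowest library was apart for Tlr5 (0.454 CPM). In control the highest library was apart for Traf6 (51.2 CPM), Ptgs2 (0.631 CPM) and Cxcl2 (0.033 CPM, a single read), and the lowest for Cxcl1 (0.126 CPM). Nod2 differed between the mutants in edgeR's direct test, by 1.30 on the log2 scale (adjusted p = 3.2e-07), over 2-fold.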

How the results depend on the processing

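All calls of members over 2-fold against control (5 and 6 higher, 0 lower) had the same counts under every alternative that kept the 2-fold limit, DESeq2 and the replicate block included. No paired origin of the libraries is stated, and with the replicate number as a block the member counts were again 5, 0, 6 and 0, with 1 and 0 between the mutants. With no limit on the fold change, members higher and lower were 22 and 6, 22 and 7, and 4 and 14 in the 3 comparisons, and all genes 4656 and 4540, 4402 and 4327, and 3259 and 3434. With no filter on low counts, all genes numbered 1581 higher in Hdac1-deleted enteroids, 1170 higher and 622 lower in Hdac2-deleted enteroids, and 1076 higher and 724 lower between the mutants. Between the mutants 2 members were then higher, because Cxcl2, set to 0 where not listed, joined Nod2. With each library left out in turn, members lower in Hdac1-deleted than Hdac2-deleted enteroids numbered 0 to 1 (Ccl20). Signs turned only for values that passed no test: between the mutants Csf1 (-0.12 to 0.24), Cxcl1 (-0.28 to 0.08), Ptgs2 (-0.34 to 0.20), Rel (-0.07 to 0.02), Nfkbie (-0.14 to 0.02), Rela (-0.01 to 0.05), Ripk2 (-0.01 to 0.16) and Traf6 (-0.04 to 0.01), in Hdac1-deleted enteroids Irak3 (-0.08 to 0.09, and 0 with no filter), Tnfrsf1b (-0.05 to 0.02) and Tlr4 (-0.21 to 0.02), and in Hdac2-deleted enteroids Tlr5 (-0.15 to 0.26), when single libraries were left out; Ptgs2 and Traf6 between the mutants also turned with library size alone (0.01 each), and the cause was not tested. By an adjusted p of at most 0.05 alone, no change against control was lost under any alternative, while Nfkbia, Nod1 and Tnfaip2 in Hdac1-deleted and Nfkbie in Hdac2-deleted enteroids passed it under 1 to 3 alternatives each (0.0092 to 0.048). Between the mutants Birc3 lost it under 4 alternatives (to 0.091) and Relb and Tnfrsf1b under 1 each (0.059 and 0.066), and Irak2, Ltbr, Nfkb2, Nod1 and Tnfrsf1a gained it under 1 or 2. Members under about 1 CPM, such as Tlr5, Cxcl1 and Csf1, have SEs of 0.23 to 0.36 on the log2 scale, which limits what could be detected.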
